A study of Mus musculus with 21 samples.

Results

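The skin of wild-type newborn mice was compared with the brain and the liver of the same animals, across all gene rows of the counts, to describe which genes were higher or lower in skin than in both other tissues. The 15 libraries used came from C57BL/6 mice at P0, the day of birth, that were all wild type: 5 titled Skin WT, 5 Brain WT and 5 Liver WT, numbered 1 to 5, with the number taken as the mouse and 1 library per mouse and tissue. The series also holds 6 libraries from 2 newborn mice that were heterozygous for a Jak1 knock-in allele (Jak1 KI +/-), which carries an amino acid substitution in the pseudokinase domain and a pair of silent changes and was bred from a mosaic founder. Those 6 libraries were not in the fit that made the calls. They were used as held-out samples and in an alternative fit of all 21 libraries. Total RNA was taken from whole pieces of tissue, and neither the body site nor the depth of the skin pieces is given in the sources used here, so that a skin library can hold epidermis, follicles, dermis, fat and the muscle under them. Of 24391 gene rows, 17071 passed the filter on low counts and were tested, 1862 were called higher in skin than in both tissues, and 680 were called lower in skin than in both.

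Skin is layered. Basal keratinocytes divide on a basement membrane and express keratins 5 and 14, the cells above them switch to keratins 1 and 10, and the outermost cells crosslink loricrin, involucrin and late cornified envelope proteins under the membrane and release lipids that seal the barrier. Around birth the mouse coat is still forming: follicles at several stages grow down into a dermis rich in fibrillar collagen, the dermal condensate becomes the papilla, melanocytes colonise the hair bulb, and fat cells fill the deep dermis above a thin sheet of striated muscle, the panniculus carnosus.

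Depth was similar in the 3 tissues, with 28637568 to 34900383 counts on genes in the skins, 26549326 to 33534256 in the brains and 30105720 to 38388133 in the livers. The 50 most abundant genes took 38.1% to 43.0% of the counts in the livers, 16.6% to 22.5% in the skins and 8.55% to 10.7% in the brains. Defining markers went with the titles: the neuronal gene Snap25 was at 0.0260 to 1.27 CPM (read counts scaled to the size of the library) in the skins and 318 to 544 in the brains, Alb was at 2.40 to 26.1 CPM in the skins and 127839.8 to 164519 in the livers, and Krt5, Krt14, Krt10 and Col1a1 were high in every skin. Brain 5 stood apart from the other brains: its counts differed from theirs with a chi-square per degree of freedom of 176 to 208, against 26.1 to 42.1 among the other 4, and the calls without mouse 5 were 1859 higher and 693 lower. The skins also differed from each other in what they held. Skin 2 had transcripts of intestinal epithelium, with Muc2 at 195.7 CPM against at most 0.678 in the other skins. Skin 5 had little of the upper epidermis, with Krt10 at 70.5 CPM against at least 448. Skin 4 was low in fat cell genes, with Cfd at 37.8 CPM against at least 529. Skin 3 carried high levels of some genes of brown fat, with Cidea at 167 CPM against at most 14.3, and was the only skin with Y-linked expression. The higher and lower calls numbered 1877 and 737 without skin 2, 1861 and 689 without skin 5, and 1897 and 729 without either. Of the 1862 higher calls, 1762 were also made without both, and of the 680 lower calls, 597. The study's methods give a lower RNA integrity for the skin samples than for the liver samples, and integrity and tissue cannot be told apart here. In bulk tissue, fewer cells of a type and less RNA per cell cannot be told apart either.

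Promoters of 5 genes that were far higher in skin are printed, because they show the sequence in front of the members on which the cell type results below turn. They are, in each of 4 lists (cornification, basal keratinocyte, skeletal muscle with 2 genes, and dermal fibroblast), the called genes with the widest gap between the lowest skin and the highest brain or liver library that have 1 promoter in RefSeq. Each runs 5′ to 3′ on the gene's own strand, from 150 bases before to 30 bases after the annotated start, on build GRCm38.p6. Capitals mark matches on either strand to 4 motifs searched: TATAAA (the TATA box core), TGANTCA (the AP-1 motif), GCCNNNGGC (an AP-2 motif) and CAGCTG (an E-box). Lce1m is a late cornified envelope gene (chr3:93019032-93019211, minus strand), Krt5 encodes the type II keratin of basal cells (chr15:101712876-101713055, minus strand), Actc1 is the cardiac actin that fetal skeletal muscle also uses (chr2:114052846-114053025, minus strand), Myh3 is embryonic myosin heavy chain (chr11:67078150-67078329, plus strand), and Twist2 is a transcription factor of dermal fibroblasts (chr1:91801311-91801490, plus strand).
Lce1m: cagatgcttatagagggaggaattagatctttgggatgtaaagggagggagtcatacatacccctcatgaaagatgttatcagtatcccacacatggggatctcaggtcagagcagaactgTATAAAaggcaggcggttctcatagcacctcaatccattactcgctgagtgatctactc
Krt5: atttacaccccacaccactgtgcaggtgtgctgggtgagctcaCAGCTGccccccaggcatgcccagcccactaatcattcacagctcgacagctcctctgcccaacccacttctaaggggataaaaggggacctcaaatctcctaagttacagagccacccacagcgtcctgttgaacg
Actc1: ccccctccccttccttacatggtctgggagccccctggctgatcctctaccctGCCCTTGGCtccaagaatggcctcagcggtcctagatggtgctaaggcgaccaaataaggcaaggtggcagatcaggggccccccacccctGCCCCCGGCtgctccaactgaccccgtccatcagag
Myh3: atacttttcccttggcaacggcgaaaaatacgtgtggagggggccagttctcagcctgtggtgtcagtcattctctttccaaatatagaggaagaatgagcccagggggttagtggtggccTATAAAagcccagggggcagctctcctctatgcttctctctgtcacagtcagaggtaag
Twist2: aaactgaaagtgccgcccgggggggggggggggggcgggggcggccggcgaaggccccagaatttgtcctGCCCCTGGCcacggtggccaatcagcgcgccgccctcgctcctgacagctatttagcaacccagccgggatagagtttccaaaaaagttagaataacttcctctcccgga

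TATAAA on the gene's strand begins 29 bases before the start in both Lce1m and Myh3. Over 300-base promoters, from 250 bases before to 50 after the start, TATAAA was present on either strand in 13.6% of all 32851 promoters in the table, in 8.43% of the 16064 promoters of tested genes, in 13.2% of the 1594 promoters of called higher genes and in 7.37% of those of called lower genes. Among the called members of the keratinocyte, cornification and keratin lists, 54 of 82 genes had promoters there, and 37.3% of their 59 promoters held it. Restricted to the gene's strand between 40 and 20 bases before the start, the shares were 1.91% of all promoters, 1.67% for tested genes, 4.27% for higher genes, 1.35% for lower genes, 25.4% for that keratinocyte set and 10% for the 40 promoters of called muscle genes. CAGCTG was found in 16.3% of all promoters, 16.2% of those of tested genes, 22.0% of those of higher genes and 47.5% of those of muscle genes, for which 34 of 41 genes had an entry. The AP-1 motif was in 7.81% of all promoters, 5.76% of those of tested genes, 9.85% of those of higher genes and 18.6% of those of the keratinocyte set. GCCNNNGGC was in 16.6% of all promoters, 23.5% of those of tested genes, 22.0% of those of higher genes and 8.47% of those of the keratinocyte set. These shares describe letters in a window and were not tested. The keratinocyte set holds related copies, such as the Lce1 genes and the keratins, so that its promoters are not separate observations. The searched motifs do not share a sequence, but matches may lie over each other in a promoter. Of the 1862 higher genes, 1304 had a promoter in the table.

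A gene was called where edgeR's quasi-likelihood test gave an adjusted p under 0.05 and at least a 2-fold difference in the same direction against both tissues. The filter on low counts passes a gene that has enough counts in 1 tissue alone. A gene read almost only in skin was therefore tested because skin was high, so that its higher call was close to fixed. The 1862 higher genes were 10.9% of the genes tested and the 680 lower genes 3.98%. Against the brain alone, 4727 genes (27.7%) were higher in skin and 4238 (24.8%) lower. Against the liver alone, 4461 (26.1%) were higher and 3122 (18.3%) lower. A further 1188 genes (6.96%) were higher in skin than in brain and lower than in liver, and 1508 (8.83%) were lower than in brain and higher than in liver. Of the higher calls, 1694 (91.0%) had all 5 skins above all brains and livers, a pattern that 12.8% of all tested genes showed. Of the lower calls, 501 (73.7%) had all skins below, against 6.11% of all tested genes. The median of the smaller of the 2 log2 differences was 2.60 for higher genes and 290 of them exceeded 6. For lower genes the median was 2.00, and 29 exceeded 6. At the edge of the 2-fold rule, among genes of at least 10 CPM, Capns1 was just inside and Nipal2 just outside on the higher side, at log2 differences of 1.002 and 0.9998. On the lower side the pair was Zrsr1 and Abhd17c, at -1.0004 and -0.998.

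The called higher genes took 30.7% ± 2.50 of all counts in the skins (SD, n = 5), 2.15% in the brains and 1.75% in the livers. The called lower genes took 0.797% in the skins, 4.38% in the brains and 6.46% in the livers. The direction of both contrasts follows from the calls, which were made on the same libraries. Of the 1862 higher genes, 350 (18.8%) belonged to a list of cell types or processes used here, and the other higher genes are summarised by these totals.

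**Figure D1:**
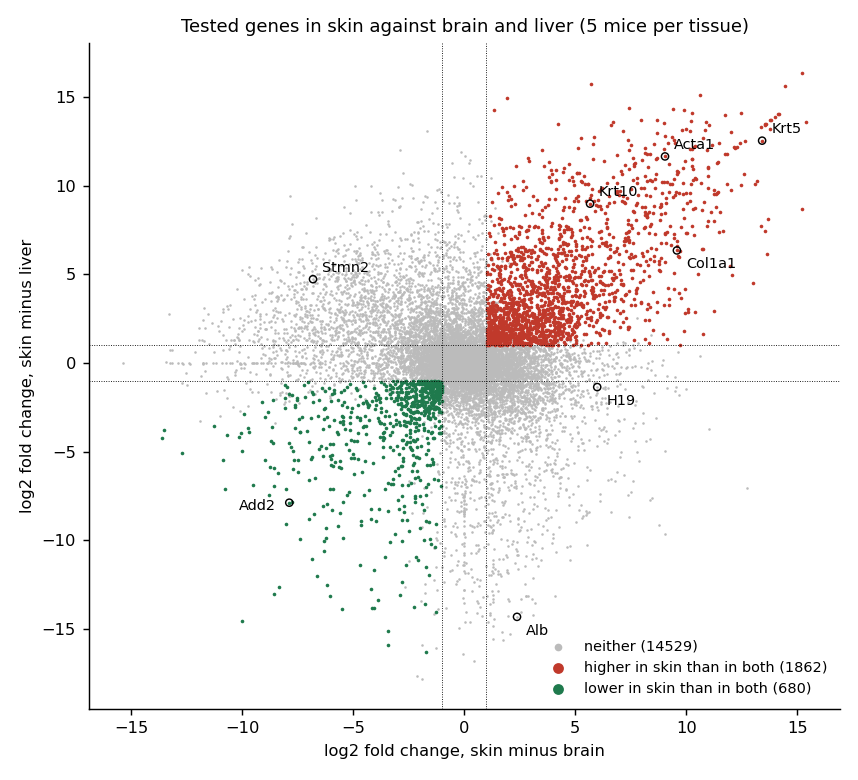
Each point is 1 of the 17071 tested genes, by its log2 difference of skin against brain (x axis) and skin against liver (y axis), with called higher genes, called lower genes and the 14529 others in separate colours. Krt5, Col1a1 and Acta1 lie far up the diagonal, Add2 lies at about -8 on both axes, and H19 is an example of a gene higher than in brain and lower than in liver.

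Genes of the basal keratinocyte were higher in skin almost throughout. Of 18 listed genes, all tested, 15 were called higher, with median log2 differences of 4.86 against the brain and 3.75 against the liver, beside 0.03 and 0.09 over all tested genes. Values for the skins are given here and below in the order of mice 1 to 5. Krt5 (chromosome 15, 101537501 to 101543322, minus strand in NCBIM37) stood at 1388, 890.3, 1061, 2247 and 612 CPM in the skins, 0.0639 to 0.193 in the brains and 0.121 to 0.270 in the livers. Its log2 differences were 13.42 (SE 0.26, adjusted p = 1.25e-10) against the brain and 12.55 (SE 0.25, adjusted p = 1.28e-10) against the liver, and no other gene had a wider gap between its lowest skin and its highest brain or liver library. All 5 skins lay far above every other library, with skin 4 the highest and skin 5 the lowest. Krt14, the type I partner of keratin 5, was at 698, 512, 512, 1088 and 341 CPM and reached at most 0.434 in brain and 1.25 in liver. Krt15, which marks quiescent basal and follicle stem cells, was at 437, 303, 381, 649.9 and 202 CPM and at most 0.180 elsewhere. Both were highest in skin 4 and lowest in skin 5, as Krt5 was. Trp63, the transcription factor that founds the stratified epithelium, averaged 128 CPM in the skin, 0.206 in the brain and 0.608 in the liver. The hemidesmosome genes Col17a1 and Itgb4, which anchor the basal cell, averaged 169 ± 53.3 and 65.96 ± 10.8 CPM in skin (SD, n = 5) and stayed at or below 0.954 and 4.63 CPM in every brain and liver. Dst, Egfr and Areg were tested and not called, because Dst differed by less than 2-fold, Egfr was higher in liver (281 CPM against 41.00 in skin), and Areg did not pass in both contrasts.

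The suprabasal and cornified layers were called almost completely among the tested members, and they varied widely between skins. All 20 tested members of the suprabasal list were called higher (22 were in the files), with median log2 differences of 6.71 against the brain and 9.28 against the liver, or 6.71 and 8.73 with the members at 0 put at their bound. Krt10 was at 1991, 448, 762, 3348 and 70.5 CPM in the skins, 13.8 to 24.01 in the brains and 1.36 to 2.79 in the livers, with log2 differences of 5.67 (SE 0.80, adjusted p = 4.72e-05) against the brain and 8.99 (SE 0.90, adjusted p = 3.15e-06) against the liver. No skin overlapped with the other tissues, skin 4 was the highest and skin 5 the lowest by far. Where a tissue had 1 to 3 reads of a gene, the fold is the skin mean over the pooled rate of its 5 libraries, and where it had none, over a floor of 3 reads in the group. Krt1 was at 2686, 777, 1323, 5149.7 and 162 CPM and 20.7 to 30.2 in the brains, its mean 80196 times the pooled rate of the liver, from 3 reads there (95% counting interval 27442 to 388877). Krtdap, a secreted peptide of differentiating keratinocytes, was at 326, 193, 233, 474 and 60.2 CPM, and its mean was 5836 times that of the brain, and 6395 times that of the liver. Calm4, a calmodulin-like protein of the upper layers, was at 463, 171, 293, 719 and 37.1 CPM, and its mean was 63976 times the pooled rate of the brain, from 1 read there (95% counting interval 11482 to 2526921), and at least 13373-fold that of the liver, where no read was counted. Lgals7 varied less, at 777, 513, 567, 1106 and 492 CPM, beside 3.37 to 10.6 in the brains and 0.0470 to 0.638 in the livers. Pkp1, a desmosomal plaque protein, was at 259, 153, 147, 431 and 74.4 CPM and at most 0.215 elsewhere.

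In the cornification list, 27 of 28 tested members were called higher, and another 10 of the 38 in the files had too few counts to be tested. Members with almost no reads in brain and liver passed the filter through skin alone. The share called here, and in the suprabasal and keratin lists, therefore follows in part from the filter. The median log2 differences were 11.41 against the brain and 12.23 against the liver, and 10.15 and 9.73 when the 14 members with no read in brain and the 17 with none in liver were put at their lower bound, a floor of 3 reads over the group. Lor, which encodes loricrin, the main protein of the envelope, was at 1184, 564, 1097, 2699 and 79.97 CPM in the skins, 11.4 to 31.5 in the brains and 0 to 0.201 in the livers. Its mean was 68.1 times that of the brain, and 8083 times that of the liver. Lce1m, whose promoter is printed above, was at 243, 144, 245, 357 and 17.05 CPM, and its mean was 38223 times the pooled rate of the brain, from 1 read there (95% counting interval 6860.3 to 1509739), and at least 7990.1-fold that of the liver, where no read was counted. Hrnr, which encodes hornerin, was at 226, 120.5, 121, 323 and 10.5 CPM, and its mean was at least 10145-fold that of the brain, where no read was counted, and 19086 times the pooled rate of the liver, from 1 read there (95% counting interval 3426 to 753846). These 3 genes were read in every skin and were at or near 0 outside it, apart from Lor in the brain. Ivl (involucrin) was at 42.2, 15.6, 29.5, 66.6 and 2.84 CPM and Casp14, a caspase of terminal differentiation, at 95.97, 39.7, 62.2, 132 and 12.4 CPM. Cdsn, which encodes corneodesmosin, the adhesion protein of the horny layer, was at 93.5, 39.6, 71.6, 184 and 14.3 CPM, and its mean was 1047 times that of the brain, and at least 3199-fold that of the liver, where no read was counted. In each of them skin 4 was the highest and skin 5 the lowest. Tgm1, a crosslinking transglutaminase, was the tested member that was not called: it averaged 24.6 CPM in the skin, 0.139 in the brain and 24.4 in the liver. Copies of the Lce1 and Sprr families are near-identical in places, and reads that fit several copies may be missing from their counts.

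**Figure D2:**
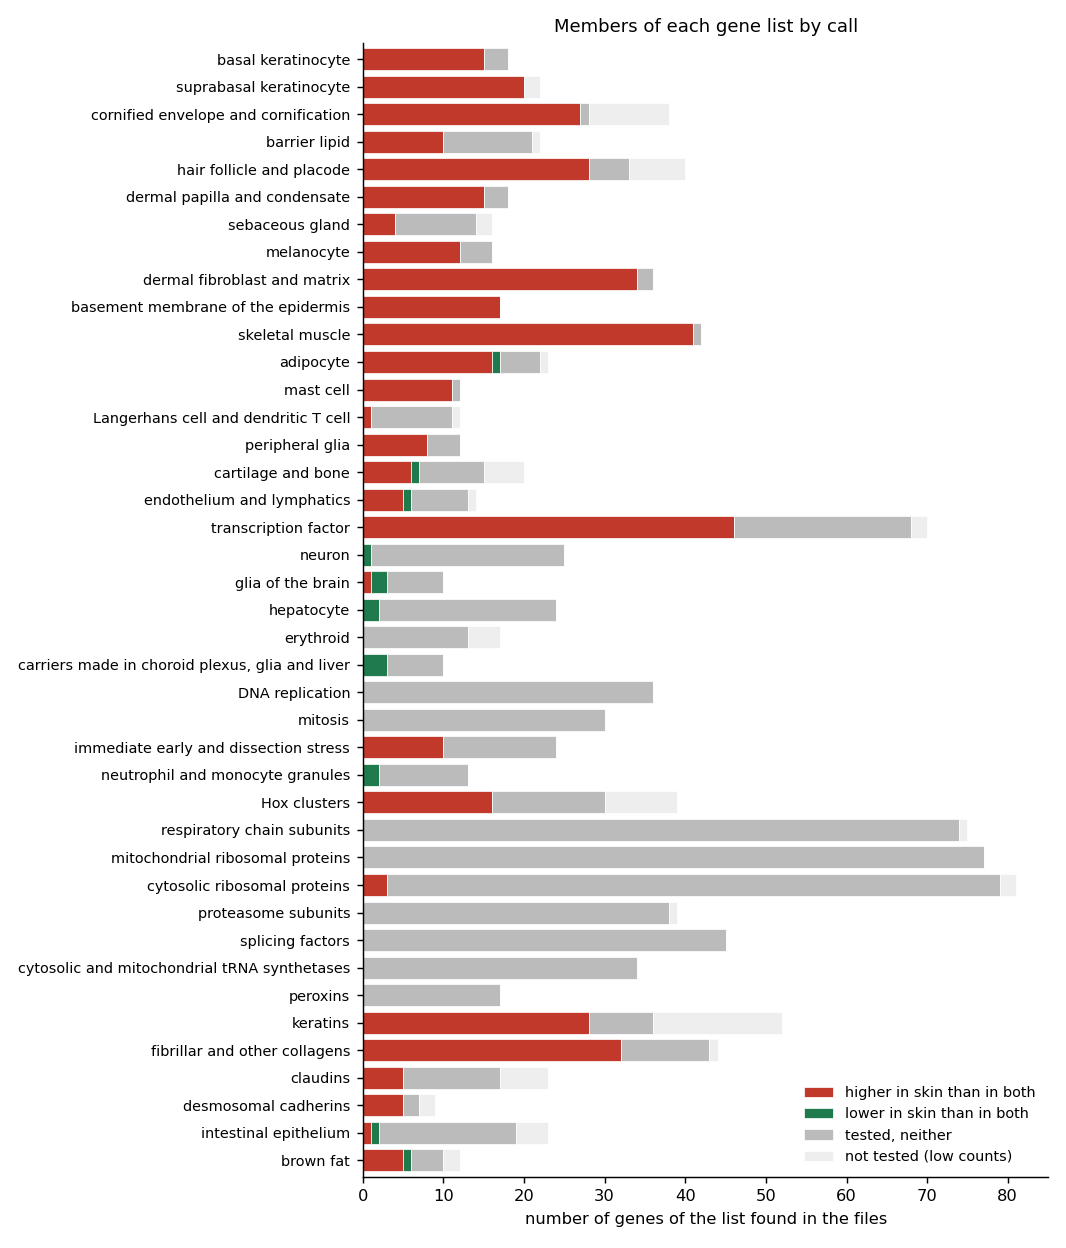
Stacked bars give, for each gene list, the number of members in the files that were called higher in skin than in both tissues, called lower, tested and called neither, or not tested. The basal keratinocyte, fibroblast, basement membrane, muscle and mast cell bars are filled mostly by higher calls, the cornification and keratin bars hold many members that were not tested, while none of the 36 DNA replication, 30 mitosis or 45 splicing genes was called.

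Genes of the lipid barrier were called in part. Of 21 tested members 10 were called higher and none lower, with medians of 2.57 against the brain and 4.26 against the liver. Called genes included Alox12b, a lipoxygenase of ceramide processing (27.4 CPM in the skin, 0.617 in the brain and 0 in the liver), and Abca12, which loads lamellar granules, at 12.2, 4.72, 6.59, 24.9 and 1.57 CPM beside 0.146 to 0.296 in the brains and 0.0367 to 0.141 in the livers. Cers3, the ceramide synthase for very long chains, was at 13.3, 10.3, 6.96, 23.7 and 3.55 CPM, and Lipm, an epidermal lipase, at 35.5, 25.7, 16.3, 36.7 and 7.95 CPM. Those 3 were lowest in skin 5. Aloxe3, which acts after Alox12b, was tested and not called, at 18.8 CPM in the skin, 10.9 in the brain and 0.239 in the liver. Also not called were the glucosylceramide synthase Ugcg, which averaged 62.00 CPM in the skin, 114 in the brain and 99.1 in the liver, and the elongase Elovl4, which averaged 63.9 CPM in the skin, 118 in the brain and 0.124 in the liver.

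By gene family, 28 of 36 tested keratins were called higher and none lower, and another 16 keratin rows were not tested. The medians were 5.76 against the brain and 9.57 against the liver, or 5.76 and 7.89 with the members at 0 put at their bound, and the family took 0.756% ± 0.539 of the counts in the skin (SD, n = 5), 0.00918% in the brain and 0.0261% in the liver. Those not called were Krt8, Krt18, Krt19, Krt20, Krt23, Krt26, Krt222 and Krt9. Krt8 and Krt18, the pair of simple epithelia, were higher in liver, at 64.3 to 106 and 169.7 to 229 CPM. In the skins Krt8 was at 2.32, 82.6, 2.66, 1.71 and 30.4 CPM and Krt18 at 0.960, 29.8, 5.20, 1.43 and 45.6, high only in skins 2 and 5. Of 7 tested desmosomal cadherins (9 in the files) 5 were called higher, with medians of 5.47 against the brain and 9.14 against the liver. Dsg1a, the cadherin of the upper layers, was at 99.6, 36.97, 42.8, 103 and 10.97 CPM and Dsc3 at 129, 48.99, 69.98, 165 and 24.05 CPM, with at most 0.317 and 1.90 elsewhere. Dsg2 and Dsc2, which simple epithelia also use, were higher in liver and were not called (Dsg2 averaged 16.9 CPM in the skin, 0.522 in the brain and 129 in the liver). Of 17 tested claudins (23 in the files), the strand proteins of tight junctions, 5 were called higher, with medians of 1.56 against the brain and 1.36 against the liver: Cldn4, Cldn8, Cldn9, Cldn15 and Cldn23. Cldn4 was at 14.5, 37.99, 8.30, 23.9 and 16.03 CPM and highest in skin 2, and Cldn1, which the epidermal barrier needs, was higher in liver (419 to 642 CPM) than in skin (23.8 to 97.5).

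Hair follicle genes were higher in skin for 28 of 33 tested members, and 7 of the 40 in the files were not tested. The medians were 4.51 against the brain and 7.50 against the liver, and 4.51 and 7.12 with members at 0 put at their bound. Krt17, the keratin of the outer root sheath, was at 487, 227, 331, 645 and 201 CPM in the skins, 0.217 to 0.511 in the brains and 0.0899 to 0.470 in the livers, with log2 differences of 9.87 (SE 0.47, adjusted p = 6.09e-09) against the brain and 10.17 (SE 0.49, adjusted p = 9.31e-09) against the liver. The signal Shh, made in the growing tip, was at 41.3, 12.2, 23.4, 40.5 and 15.9 CPM, beside 2.26 to 4.12 in the brains and 0 to 0.330 in the livers. Its target Gli1 was at 170.3, 139, 121, 195 and 174 CPM, beside 4.54 to 10.5 and 0.563 to 2.52. Every skin was above every brain and liver for both, and Gli1 varied less between skins than Shh. Edar, the ectodysplasin receptor of the placode, was at 18.5, 6.85, 15.1, 26.5 and 11.6 CPM, Wnt10b at 21.8, 13.4, 15.3, 27.5 and 10.6 CPM, and Dlx3, a factor of the hair matrix, at 65.3, 14.2, 36.9, 67.7 and 15.5 CPM. Differentiated shaft and sheath products were present, with Krt71 of the inner root sheath at 38.1 CPM in the skin, 0.659 in the brain and 0.0158 in the liver and Krt35 of the hair cortex at 24.8 CPM in the skin, 0.0311 in the brain and 0 in the liver. Sox9, Lhx2, Ptch1, Sox21 and Ctnnb1 were tested and not called. Sox9 averaged 27.9 CPM in the skin, 25.1 in the brain and 8.60 in the liver. Lef1, the nuclear partner of beta-catenin, was called on a narrow margin, at 50.5, 28.04, 37.4, 57.3 and 32.6 CPM against 3.53 to 29.3 in the brains, which overlapped, and lost its call without mice 1, 3 or 4, with all 21 libraries, with each contrast on its own libraries and with a threshold test against 2-fold.

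The dermal papilla and condensate list had 15 of 18 tested members called higher, with medians of 3.24 against the brain and 4.28 against the liver. Wif1, a secreted Wnt inhibitor, was at 152, 118, 129, 179 and 171 CPM, 5.41 to 8.22 in the brains and 10.8 to 17.1 in the livers. Versican (Vcan), the proteoglycan of the condensate, was at 429.7, 457, 459.7, 526 and 622 CPM, Bmp3 at 31.3, 25.7, 29.6, 30.6 and 23.9 CPM, and Fgf7, a growth factor for keratinocytes, at 23.5, 19.5, 19.8, 8.80 and 20.5 CPM. Skin 5 was the highest for Vcan, the second highest for Wif1 and the lowest for Bmp3. Crabp1, Inhba and Sdc1 were not called. Of 14 tested sebaceous gland genes (16 in the files) 4 were called higher, Krt79, Pparg, Elovl3 and Awat2, with medians of 1.63 against the brain and 0.79 against the liver. Krt79, of the sebaceous duct, was at 236, 42.1, 126, 364 and 32.9 CPM and at most 0.366 elsewhere, whereas Awat2, a wax ester synthase of mature sebocytes, was at 2.37, 7.79, 0.569, 1.51 and 0.863 CPM. Scd1, a desaturase that many lipid-making cells use, was not called, at 2113 CPM in the skin, 102 in the brain and 842 in the liver.

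Melanocyte genes were higher in skin at modest levels. Of 16 members, all tested, 12 were called higher, with medians of 3.20 against the brain and 5.03 against the liver, or 3.20 and 4.64 with the members at 0 put at their bound. Pmel, the fibril protein of the pigment granule, was at 66.9, 17.02, 27.4, 130.2 and 15.4 CPM, 0.282 to 1.23 in the brains and 0.753 to 1.66 in the livers. Dct was at 114, 27.4, 51.8, 189 and 22.1 CPM, and Tyr, the enzyme that starts melanin synthesis, at 9.49, 2.18, 4.09, 15.9 and 1.76 CPM. Tyrp1, its partner in the pathway, was at 16.7, 2.93, 3.59, 28.9 and 2.22 CPM. All 4 were highest in skins 4 and 1 and lowest in skin 5. Kit, Ednrb, Oca2 and Slc24a5 were not called: Kit averaged 74.7 CPM in the skin, 70.8 in the brain and 59.3 in the liver.

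Of the lists used, that of the dermis held the most counts. The dermal fibroblast and matrix list took 11.2% ± 1.51 of the counts in the skin (SD, n = 5), 0.155% in the brain and 0.257% in the liver, and 34 of 36 members were called higher, all 36 having been tested. Its medians were 5.99 against the brain and 4.62 against the liver. Col1a1, the alpha 1 chain of type I collagen (chromosome 11, 94797538 to 94814356, plus strand in NCBIM37), was at 18187, 15598, 20135, 22035 and 26953 CPM in the skins, 8.14 to 114 in the brains and 116 to 513 in the livers. Its log2 differences were 9.58 (SE 0.77, adjusted p = 3.46e-07) against the brain and 6.36 (SE 0.67, adjusted p = 4.68e-06) against the liver. Col1a2 was at 15253, 13545, 16158, 16815 and 22495 CPM, and Dpt, which encodes dermatopontin, at 576, 624, 601, 588 and 861 CPM. In all 3 skin 5 was the highest, the reverse of the keratinocyte genes. Among the brains, Col1a1 was highest in brain 2. Twist2 was at 215, 216, 166, 196 and 284 CPM, 0.975 to 1.61 in the brains and 0.128 to 1.12 in the livers, and its relative Twist1 was at 149, 165, 132, 121 and 212 CPM. Pdgfra, a receptor of fibroblasts and of oligodendrocyte precursors, was at 279, 281, 286, 306 and 312 CPM and was called higher although it also stood on the brain glia list. Fmod and Tnc were not called, Fmod averaging 27.9 CPM in the skin, 16.4 in the brain and 11.4 in the liver. Of 43 tested collagens 32 were called higher and none lower, with medians of 3.51 against the brain and 3.91 against the liver, and the family took 9.37% ± 1.29 of the counts in the skin (SD, n = 5), 0.118% in the brain and 0.316% in the liver. Col18a1, from which endostatin is cut, was not called, at 373 CPM in the skin, 25.2 in the brain and 1792 in the liver.

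All 17 members of the basement membrane list were called higher, with medians of 4.22 against the brain and 3.52 against the liver. Col7a1, the anchoring fibril of the epidermis (chromosome 9, 108855631 to 108886920, plus strand in NCBIM37), was at 499, 440.3, 507, 787 and 629 CPM in the skins, 1.19 to 4.51 in the brains and 0.894 to 2.35 in the livers, with log2 differences of 8.02 (SE 0.36, adjusted p = 3.65e-09) against the brain and 8.78 (SE 0.38, adjusted p = 3.6e-09) against the liver. Frem1, of the Fraser complex that holds epidermis to dermis, was at 99.8, 95.4, 91.4, 117 and 111 CPM, and Itgb4 at 61.1, 73.3, 51.8, 79.5 and 64.1 CPM. These values were close to each other in the 5 skins, with skin 5 within the range of the others.

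Striated muscle genes were higher in skin with 1 exception. Of 42 listed genes, all tested, 41 were called higher, with medians of 7.95 against the brain and 9.61 against the liver, or 7.71 and 9.15 with the members at 0 put at their bound. They took 2.60% ± 1.03 of the counts in the skin (SD, n = 5), 0.0107% in the brain and 0.00590% in the liver, from 1.13% in skin 2 to 3.90% in skin 4. Acta1, skeletal alpha-actin (chromosome 8, 126415669 to 126418651, minus strand in NCBIM37), was at 4657, 1857, 5577, 8748 and 6252 CPM in the skins, 5.34 to 20.2 in the brains and 0.764 to 2.02 in the livers, with log2 differences of 9.04 (SE 0.46, adjusted p = 9.69e-09) against the brain and 11.66 (SE 0.52, adjusted p = 4.83e-09) against the liver. Skin 2 was the lowest and skin 4 the highest. All were far above the other tissues, as the choice of this gene by its wide gap implies. Ckm, muscle creatine kinase, was at 874, 312, 1069, 1429 and 1194 CPM, and Ttn, the giant protein titin, at 543, 262, 709, 978 and 917 CPM. Developmental isoforms were read in every skin: Myh3, embryonic myosin, was at 453, 398, 505, 1407 and 779 CPM, Myh8, perinatal myosin, at 1999.5, 737, 2619.9, 4502 and 3354 CPM, and Actc1 at 930.5, 637, 1036, 1746 and 1428 CPM. The adult fast myosins Myh1, Myh2 and Myh4 averaged 54.3, 91.8 and 28.7 CPM and were also called. Myog, the differentiation factor of myoblasts, was at 32.6, 46.5, 39.3, 68.1 and 53.9 CPM, its mean 2087 times that of the brain, and at least 1909.7-fold that of the liver, where no read was counted. Atp2a1, the calcium pump of fast fibres, was at 691, 246, 847, 1402 and 1023 CPM and Mylpf, the fast regulatory light chain, at 1934, 858, 2072, 2509.9 and 2534 CPM. Pax7, of satellite cells, was the member not called, averaging 2.55 CPM in the skin, 9.39 in the brain and 0 in the liver. Genes of muscle on no list, chosen after their values were seen, went with it: Sln, which inhibits the calcium pump, was at 124, 61.97, 104, 127 and 144 CPM, and Mybpc1, slow myosin binding protein, at 493, 218, 632, 1126 and 777 CPM.

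**Figure D3:**
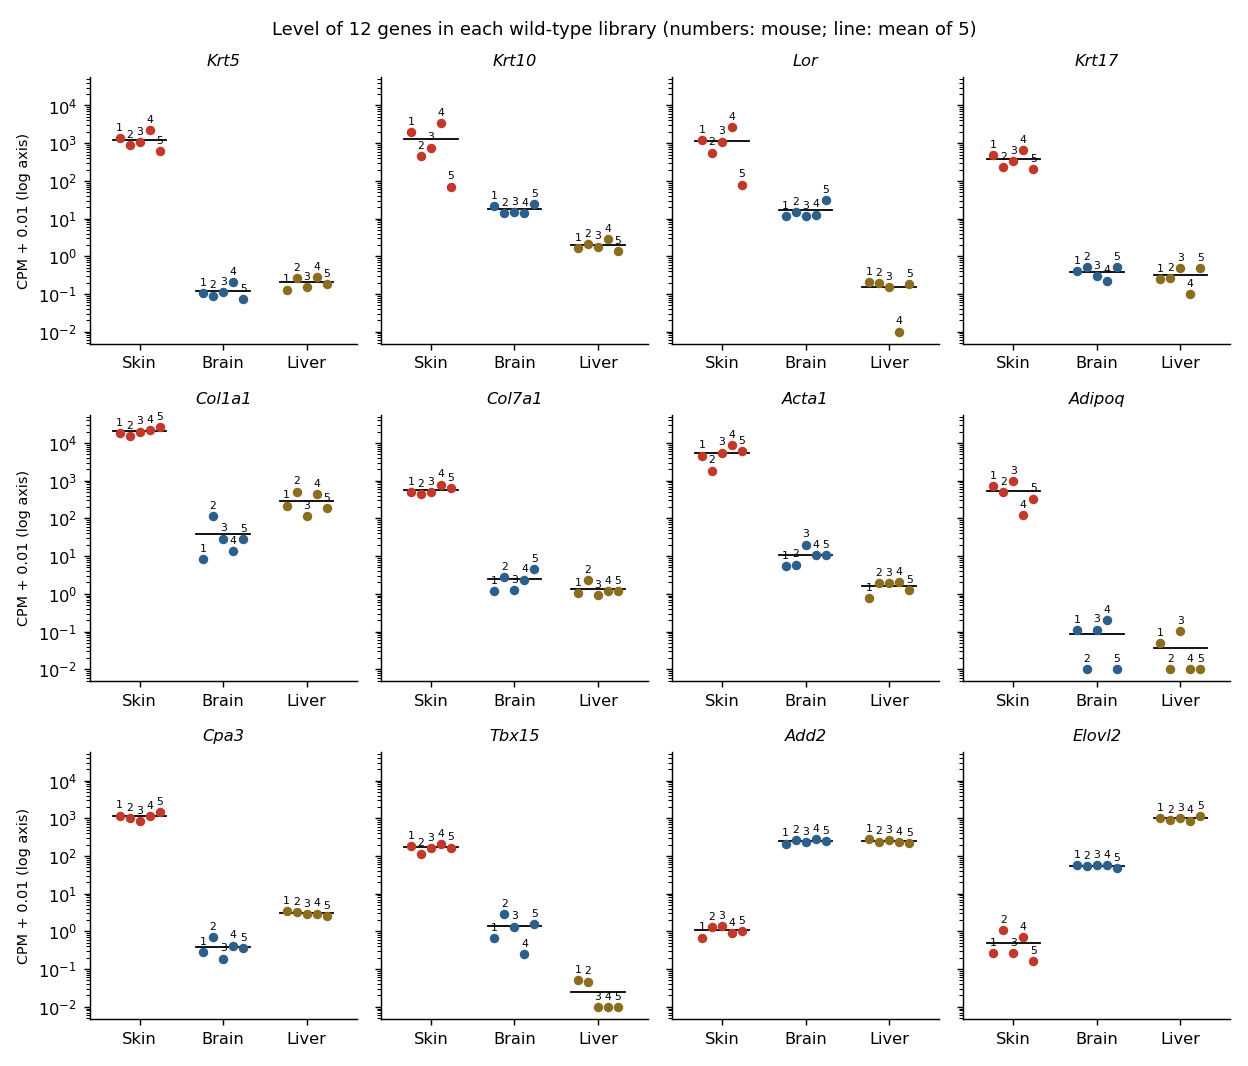
Dots give CPM + 0.01 on a log axis for 12 genes in the 5 skins, 5 brains and 5 livers, with numbers naming the mouse and a line at each tissue's mean. Krt5, Krt10, Lor, Krt17, Col1a1, Col7a1, Acta1, Adipoq, Cpa3 and Tbx15 lie higher in every skin than in every brain and liver, and Add2 and Elovl2 lie lower.

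Fat cell genes were called for 16 of 22 tested members (23 in the files), with medians of 6.39 against the brain and 3.44 against the liver, and 1 member was called lower. Adipoq, the hormone adiponectin (chromosome 16, 23146609 to 23158101, plus strand in NCBIM37), was at 714, 509.7, 959, 120.2 and 334 CPM, and its mean was 6713 times that of the brain, and 20944 times the pooled rate of the liver, from 3 reads there (95% counting interval 7167 to 101558). Cfd, which encodes adipsin, was at 1057, 841, 1159, 37.8 and 529 CPM and at most 0.188 elsewhere. Plin1, the coat protein of lipid droplets, was at 209, 122, 378, 43.9 and 87.95 CPM and at most 0.231 elsewhere. In all 3 skin 3 was the highest and skin 4 the lowest. Pparg, the master regulator of fat cells, was at 122, 85.8, 166, 32.3 and 60.9 CPM, 0.128 to 0.646 in the brains and 6.16 to 8.67 in the livers. Fat metabolism genes that hepatocytes share were not called, such as Lpl (1300.3 CPM in the skin, 18.8 in the brain and 1645 in the liver) and Acsl1 (592 CPM in the skin, 27.5 in the brain and 1776 in the liver). The coactivator Ppargc1a was called lower, at 5.17, 5.47, 9.41, 6.00 and 6.26 CPM in the skins, 21.7 to 45.7 in the brains and 19.4 to 154 in the livers. A brown fat list, chosen after values were seen, had 5 of 10 tested members called higher and Ppargc1a lower, with medians of 2.00 against the brain and 3.35 against the liver. Its member Cidea was at 14.3, 12.8, 167, 5.89 and 3.67 CPM, so that skin 3 stood far above the next, and its call was lost without mice 1, 2 or 3. Zic1, a patterning factor of the trunk and the brain, did not follow Cidea: it was at 9.40, 0.497, 1.76, 29.1 and 0.154 CPM, highest in skin 4.

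Mast cell genes were called for 11 of 12 members, with medians of 11.07 against the brain and 7.88 against the liver and 10.06 and 7.88 with the members at 0 put at their bound. The protease Cpa3 (chromosome 3, 20115516 to 20142080, minus strand in NCBIM37) was at 1172, 1015, 832, 1169 and 1441 CPM in the skins, 0.179 to 0.700 in the brains and 2.55 to 3.38 in the livers, with log2 differences of 11.54 (SE 0.32, adjusted p = 2.86e-10) against the brain and 8.54 (SE 0.28, adjusted p = 6.45e-10) against the liver. The chymases Cma1 and Mcpt4 were at 591, 532, 457, 602 and 775 CPM and 253, 288, 269, 251.4 and 358 CPM, and the tryptase Tpsb2 at 599, 515, 461, 405 and 679 CPM. Skin 5 was the highest for each of these 4 proteases. They were named for their wide gaps, so that every skin was far above every brain and liver. Kit, which mast cells share with melanocytes and other cells, was the member not called. Of 11 tested Langerhans cell and dendritic T cell genes (12 in the files) 1 was called, Epcam, also an epithelial gene. The medians were 4.72 against the brain and -0.04 against the liver, the latter turning to 0.67 under scaling by total counts and 0.11 under the upper quartile, and the former 4.62 with the members at 0 put at their bound. The defining gene Cd207 averaged 0.0623 CPM in the skin, 0.0193 in the brain and 0.892 in the liver. The antigen presentation gene Cd74 averaged 35.3 CPM in the skin, 0.769 in the brain and 31.7 in the liver.

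Nerve, vessel and skeletal lists were called in part. Of 12 peripheral glia genes 8 were called higher, with medians of 2.21 against the brain and 4.95 against the liver. Prx, which encodes periaxin of peripheral myelin sheaths, was at 16.7, 18.4, 21.3, 33.6 and 20.4 CPM in the skins, 3.12 to 6.22 in the brains and 2.29 to 6.25 in the livers, and Pmp22 was at 300.2, 304, 302, 329 and 384 CPM. Mbp, which central myelin shares, was not called. Of 13 tested endothelial and lymphatic genes (14 in the files) 5 were called higher and Prox1 lower, with medians of 2.22 against the brain and 1.02 against the liver. Pecam1 was at 235, 248, 308, 223 and 246 CPM, 18.5 to 27.1 in the brains and 40.5 to 102 in the livers, and Prox1, which hepatocytes and some neurons also express, averaged 2.90 CPM in the skin, 14.8 in the brain and 62.1 in the liver. Of 15 tested cartilage and bone genes (20 in the files) 6 were called higher and Spp1 lower, with medians of 0.61 against the brain and 2.07 against the liver. Col2a1, of cartilage, was at 52.00, 49.95, 63.2, 91.8 and 133 CPM, highest in skin 5, and Spp1 averaged 1.19 CPM in the skin, 13.7 in the brain and 170.0 in the liver.

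Transcription factors of these compartments were also higher in skin. Of 68 tested members of the list (70 in the files) 46 were called higher and none lower, with medians of 4.13 against the brain and 5.68 against the liver, or 4.13 and 5.58 with the members at 0 put at their bound. Tbx15, of dermal and muscle patterning, was at 187, 115, 164, 209.7 and 168 CPM, 0.241 to 2.93 in the brains and 0 to 0.0402 in the livers. Grhl2 and Zfp750, of epidermal differentiation, averaged 25.2 CPM in the skin, 0.0668 in the brain and 0.487 in the liver, and 31.9 CPM in the skin, 0.0873 in the brain and 12.3 in the liver. Klf4, of the barrier, was at 189, 187, 121, 234 and 103 CPM. Osr2, a patterning factor chosen after its values were seen and on no list, was at 143, 204, 80.9, 115 and 164 CPM, its mean at least 8961-fold that of the brain, where no read was counted, and 382 times that of the liver. Tfap2b was not called because it was higher in brain (32.3 CPM in the skin, 110.0 in the brain and 0 in the liver). Of 30 tested Hox genes (39 in the files) 16 were called higher and none lower, with medians of 2.11 against the brain and 7.20 against the liver. Hoxd8 was at 66.7, 50.1, 66.1, 65.04 and 90.97 CPM, 0 to 0.513 in the brains and 0 to 0.440 in the livers. Hoxc9 was at 19.5, 16.4, 6.75, 11.8 and 11.9 CPM, its mean at least 841-fold that of the brain, where no read was counted, and at least 527-fold that of the liver, where no read was counted. Hoxd9 was at 18.95, 21.97, 19.3, 24.01 and 24.4 CPM, and Hoxc8 at 33.8, 22.02, 33.98, 22.1 and 44.4 CPM. None passed as lower than in brain, where the summed level of the list ranged from 14.2 to 403 CPM between libraries. Of the 14 tested members not called, Hoxa5 averaged 12.5 CPM in the skin, 42.8 in the brain and 2.37 in the liver, and Hoxb5 6.84 CPM in the skin, 35.97 in the brain and 0.825 in the liver.

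Genes called lower in skin included several that neurons or hepatocytes use. Add2, a subunit of the membrane skeleton protein adducin found in neurons and red cells (chromosome 6, 86028078 to 86069549, plus strand in NCBIM37), was at 0.678, 1.27, 1.40, 0.908 and 1.02 CPM in the skins, 214 to 278 in the brains and 219 to 276 in the livers. Its log2 differences were -7.89 (SE 0.20, adjusted p = 2.08e-10) against the brain and -7.88 (SE 0.20, adjusted p = 2.12e-10) against the liver, so that skin was lower by nearly the same amount against both. Elovl2, which elongates polyunsaturated fatty acids, was at 0.254, 1.08, 0.259, 0.701 and 0.154 CPM in the skins, 47.6 to 58.1 in the brains and 864 to 1149.9 in the livers. Slc30a10, a manganese exporter, was at 0.141, 1.35, 0.414, 0.0779 and 0.401 CPM in the skins, 31.3 to 40.7 in the brains and 83.5 to 152 in the livers. No skin reached the level of any brain or liver for these 3 genes, which follows from their choice by the widest gaps. Onecut2, a transcription factor of liver and neurons, was at 0.0282, 0.249, 0.0517, 0.0779 and 0.0308 CPM in the skins, 10.1 to 17.2 in the brains and 63.6 to 107 in the livers. Gfap, the filament of astrocytes and of some liver cells, was at 0.169, 0.442, 0.155, 0.311 and 0.586 CPM in the skins, 30.1 to 47.7 in the brains and 11.7 to 18.02 in the livers. Adora1, the A1 adenosine receptor, Atp2b2, a calcium pump, and Slc17a8, a vesicular glutamate transporter, had at most 3.90, 0.332 and 0.138 CPM in any skin and at least 46.6, 11.8 and 7.93 in any brain or liver. The same held for Etnk2, Plcxd2, Tbc1d30, Aifm3, E130309D14Rik and 2810459M11Rik, which were also among the 15 lower genes with the widest gaps. Only 12 of the 680 lower genes (1.76%) belonged to a list.

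Lists of brain, liver and blood cell types gave small numbers of calls, since a gene had to differ from both tissues. Over all tested genes 10.9% were called higher and 3.98% lower. Lower calls were 20% of the brain glia list, 30% of the carriers, 15.4% of the granule genes and 8.33% of the hepatocyte genes. They were 4% of the neuron, 5.26% of the intestinal and 0% of the erythroid genes. These lists are short, and the shares were not tested. Of 25 neuron genes 1 was called (Gad2, lower), with medians of -8.05 against the brain and 2.33 against the liver, the latter 2.23 with the members at 0 put at their bound. The summed level of the list was 122 to 222 CPM in the skins, 14170.1 to 16684 in the brains and 20.4 to 31.8 in the livers, and Neurod6 was read in skin 5 only, at 0.0617 CPM. Gap43 and Stmn2, which growing axons carry, were among the highest of them in skin, Gap43 averaging 54.7 CPM and Stmn2 at 20.02, 19.5, 16.3, 32.99 and 16.2 CPM. Of 10 brain glia genes Aldoc and Gfap were called lower and Pdgfra higher, with medians of -5.82 against the brain and 1.54 against the liver, the latter 0.90 with the members at 0 put at their bound. Of 24 hepatocyte genes Apoa1 and Ttr were called lower and none higher, with medians of 1.99 against the brain and -13.17 against the liver, and the list summed to 93.8 to 379.9 CPM in the skins against 290324 to 358776 in the livers. Of 10 carriers made in choroid plexus, glia and liver, Ttr, Clu and Aldoc were called lower, with medians of 0.39 against the brain and -4.67 against the liver. Ttr was at 0, 4.50, 0.0259, 1.51 and 1.60 CPM in the skins and 27.4, 17.2, 293, 979.7 and 2043 CPM in brains 1 to 5, so that the brains differed widely from each other. None of 13 tested erythroid genes (17 in the files) was called, with medians of 0.95 against the brain and -8.88 against the liver. The list summed to 58.03 to 103 CPM in the skins and 6178 to 8355 in the livers. Of 13 neutrophil and monocyte granule genes Prtn3 and Mmp9 were called lower and none higher, with medians of 2.49 against the brain and -7.77 against the liver and sums of 20.4 to 51.5 CPM in the skins and 6392 to 8407 in the livers. An intestinal epithelium list, chosen after values were seen, had Epcam called higher and Olfm4 lower among 19 tested genes (23 in the files), with medians of 2.40 against the brain and -1.36 against the liver, and summed to 59.5 CPM in the lowest skin and 1369 in skin 2.

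Per kilobase of exon, the 10 highest genes in skin were H19 (4095 CPM per kb), Acta1 (3747), Col1a1 (3136), Col3a1 (2807), Fabp4 (2488), Mylpf (2239), Car3 (2138), Sparc (1999), Lgals1 (1881) and Col1a2 (1388). Of these, 9 were called higher in skin than in both tissues. H19, a fetal noncoding RNA, was the exception, at 9319, 6237, 10132, 10637 and 12245 CPM in the skins, 58.9 to 461 in the brains and 23266 to 29158 in the livers. Its imprinted neighbour Igf2, a fetal growth factor, shared this order, at 3536, 3689.7, 4578, 4319 and 5176 CPM in the skins, 111 to 723 in the brains and 7748 to 12425 in the livers. The kit did not mark strand, so that reads of a gene and of its antisense partner cannot be told apart.

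Proliferation genes were higher in skin than in brain for 24 of 36 DNA replication and 29 of 30 mitosis genes, and lower than in liver for 12 and 5 of them. None of the 36 DNA replication genes or 30 mitosis genes was called, with medians of 1.43 against the brain and -0.80 against the liver for the first list and 2.36 against the brain and -0.52 against the liver for the second. Mki67, the proliferation marker, was at 311, 255, 316, 349 and 324 CPM in the skins, 18.7 to 45.97 in the brains and 1087 to 1490.4 in the livers. The skins were alike and lay above every brain and below every liver. The replication median against liver was -0.09 and the mitosis median changed sign to 0.20 when libraries were scaled by total counts only, a scaling that moved the median of all genes against liver by 0.71.

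Genes that every cell uses were close to level. No member was called among 74 tested respiratory chain subunits (medians -0.35 against the brain and 0.01 against the liver), 77 mitochondrial ribosomal proteins (-0.13 against the brain and -0.05 against the liver), 38 proteasome subunits (-0.37 against the brain and -0.11 against the liver), 45 splicing factors (0.04 against the brain and -0.00 against the liver), 34 tRNA synthetases (-0.02 against the brain and -0.57 against the liver) and 17 peroxins (0.05 against the brain and -0.38 against the liver). The signs of these small medians depend on the scaling. Scaling by total counts turned those of the mitochondrial ribosomal, proteasome, splicing, tRNA synthetase and peroxin lists against liver positive, to 0.66, 0.60, 0.71, 0.14 and 0.33, and those of the splicing and peroxin lists against brain negative. Upper quartile scaling turned the first 3 positive, to 0.10, 0.04 and 0.15, and the tRNA synthetase median against brain to 0.06, and the size factors of DESeq2 turned the splicing and peroxin medians against brain negative and the respiratory chain median against liver to -0.01. Of 79 tested cytosolic ribosomal protein genes 3 were called higher. Among them, Rpl3l, the striated muscle paralog, was at 10.8, 2.76, 16.5, 13.9 and 18.8 CPM and lowest in skin 2, and Rpl39l was at 21.2, 11.6, 11.2, 23.5 and 16.5 CPM. The median of the ribosomal list was 0.33 against the brain and 0.10 against the liver.

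Immediate early and dissection stress genes were called higher for 10 of 24 members, with medians of 2.37 against the brain and 1.00 against the liver. Fos was at 358, 369, 66.8, 61.7 and 16.6 CPM in the skins and 87.3, 41.7, 24.3, 12.8 and 5.95 CPM in the livers of the same mice. Fosb was at 43.4, 122, 3.90, 13.5 and 3.67 CPM in the skins and 6.36, 9.17, 0.282, 1.44 and 0.553 CPM in the livers. In both tissues mice 1 and 2 were the highest for both genes. Egr1 was not called, at 224, 329, 52.4, 121 and 33.4 CPM in the skins and 283, 133, 39.6, 25.4 and 24.95 CPM in the livers, with mice 1 and 2 again the highest. Other members were higher in every skin without following the mouse, such as Hspb1, a small heat shock protein of keratinocytes and muscle, at 46.8, 29.6, 37.9, 81.1 and 43.5 CPM and at most 1.66 elsewhere, and Egr3, at 33.2, 11.8, 23.9, 51.3 and 12.9 CPM and at most 2.77 elsewhere. The time between death and dissection is not given in the sources used here, and its part in these levels was not tested.

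Over all tested genes 10.9% were called higher, and some places along the genome held many of them. By bins of 1 Mb in NCBIM37, 1754 higher genes had a position, and 1197 of 2152 bins with a tested gene had none. The 5 bins with 10 or more held 71, of which those on chromosome 7 from 52 to 53 Mb (14 of 67 tested genes) and chromosome 11 from 69 to 70 Mb (11 of 47) held genes of many families. On chromosome 3 from 92 to 93 Mb, the epidermal differentiation complex, 18 of 19 tested genes were called higher, among them Ivl, Sprr1a, Sprr1b, Kprp, Lce1m, Lce1b, Lce1e and Lce6a. Only 19 of the 41 gene rows there could be tested, and those read almost only in skin passed the filter through skin alone. On chromosome 15 from 101 to 102 Mb, the type II keratin cluster, 18 of 28 were called, and from 102 to 103 Mb, with the Hoxc genes, 10 of 29. The type I keratins on chromosome 11 from 99 to 100 Mb gave 9 of 16 tested, the S100 genes on chromosome 3 from 90 to 91 Mb gave 9 of 23, and the kallikreins on chromosome 7 from 51 to 52 Mb gave 8 of 24. On chromosome 14 from 56 to 57 Mb, 8 of 41 were called, among them Cma1, Cma2, Mcpt1 and Mcpt4 of mast cells. The bins named here were picked for their many called genes. Neighbours in such clusters are often related in sequence, and neither these counts nor a grouping along the genome was tested.

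Among the 5 skins, genes of the upper epidermis and of fat varied more than those of the dermis. Over 10422 genes with at least 10 CPM on average in skin, the median SD of log2 CPM among skins was 0.192. The median SD was 1.82 over the members of the cornification list at that level, 1.10 for suprabasal genes, 1.13 for adipocyte genes, 0.790 for follicle genes, 0.756 for muscle and 0.513 for basal keratinocytes. It was 0.257 for fibroblast and matrix genes, 0.279 for mast cells, 0.328 for the basement membrane and 0.132 for mitosis. Of the 100 genes with the largest SD, 63 were called higher in skin, against 12.4% of all 10422. The largest SDs belonged to Xist, which silences the inactive X chromosome, at 685, 845, 0, 476 and 768 CPM, and to Spink1, at 0.0282, 273, 0, 0.0260 and 0 CPM, followed by Tff3, Muc2, Fcgbp and Tspan1, which were high in skin 2 alone. Ddx3y, on the Y chromosome, was at 0.141, 0.138, 58.5, 0.260 and 0.462 CPM in the skins, and it was also high in the brain and the liver of mouse 3 only.

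List scores, the mean log2 CPM over a list, gave each skin a value per cell type. The basal score was 6.72, 6.39, 6.17, 7.24 and 5.68 in skins 1 to 5. The suprabasal score was 7.17, 6.27, 6.50, 7.82 and 4.90, and the cornification score 5.38, 4.92, 4.82, 6.12 and 1.73. Skin 4 was the highest and skin 5 the lowest for all 3, with the distance growing toward the surface layers. Scores of the follicle list were 5.23, 3.65, 4.52, 5.48 and 3.75, with skin 2 the lowest, and those of the melanocyte list 3.74, 2.33, 2.78, 4.29 and 2.29. The fibroblast score was 9.38, 9.45, 9.44, 9.48 and 9.77 and the muscle score 6.71, 5.92, 6.82, 7.41 and 7.10. Fat followed another order, at 7.29, 6.80, 8.05, 5.14 and 6.22, with skin 3 the highest and skin 4 the lowest. The intestinal score was -1.11, 4.30, -0.76, -1.07 and 0.04, with skin 2 apart, and the brown fat score 3.37, 2.53, 4.29, 2.62 and 1.87, with skin 3 the highest.

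**Figure D4:**
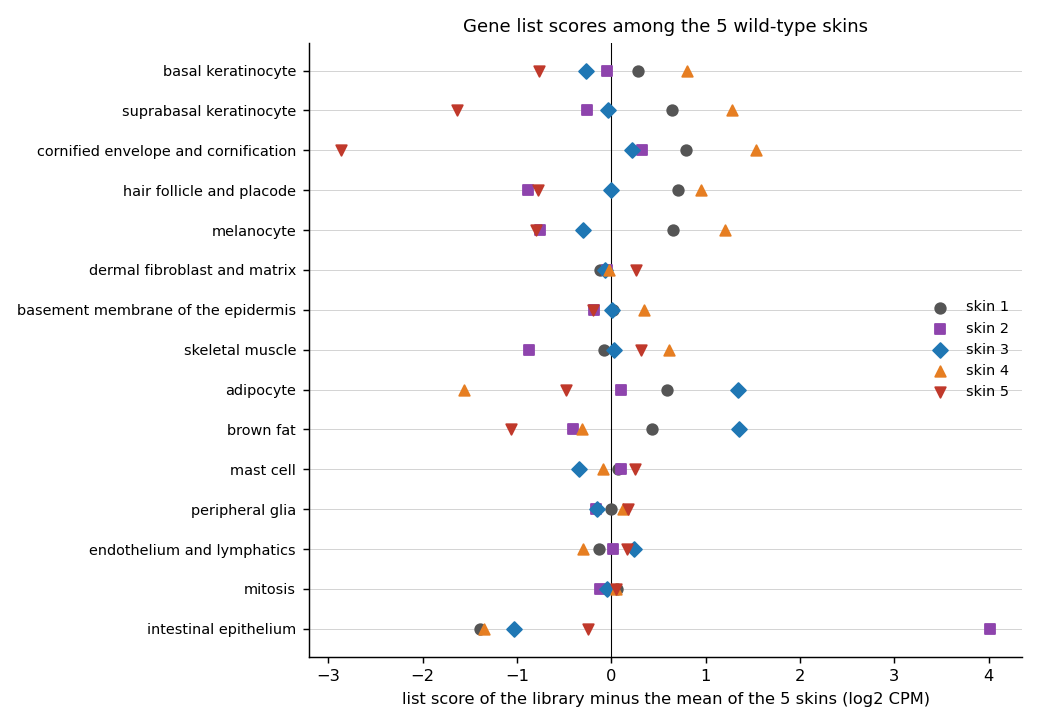
Points give, for 15 gene lists in rows, each skin's score (mean log2 CPM over the list) minus the mean of the 5 skins. The cornification score falls to 1.73 in skin 5 against 4.82 to 6.12 in the others, while the fibroblast score stays between 9.38 and 9.77.

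**Figure D5:**
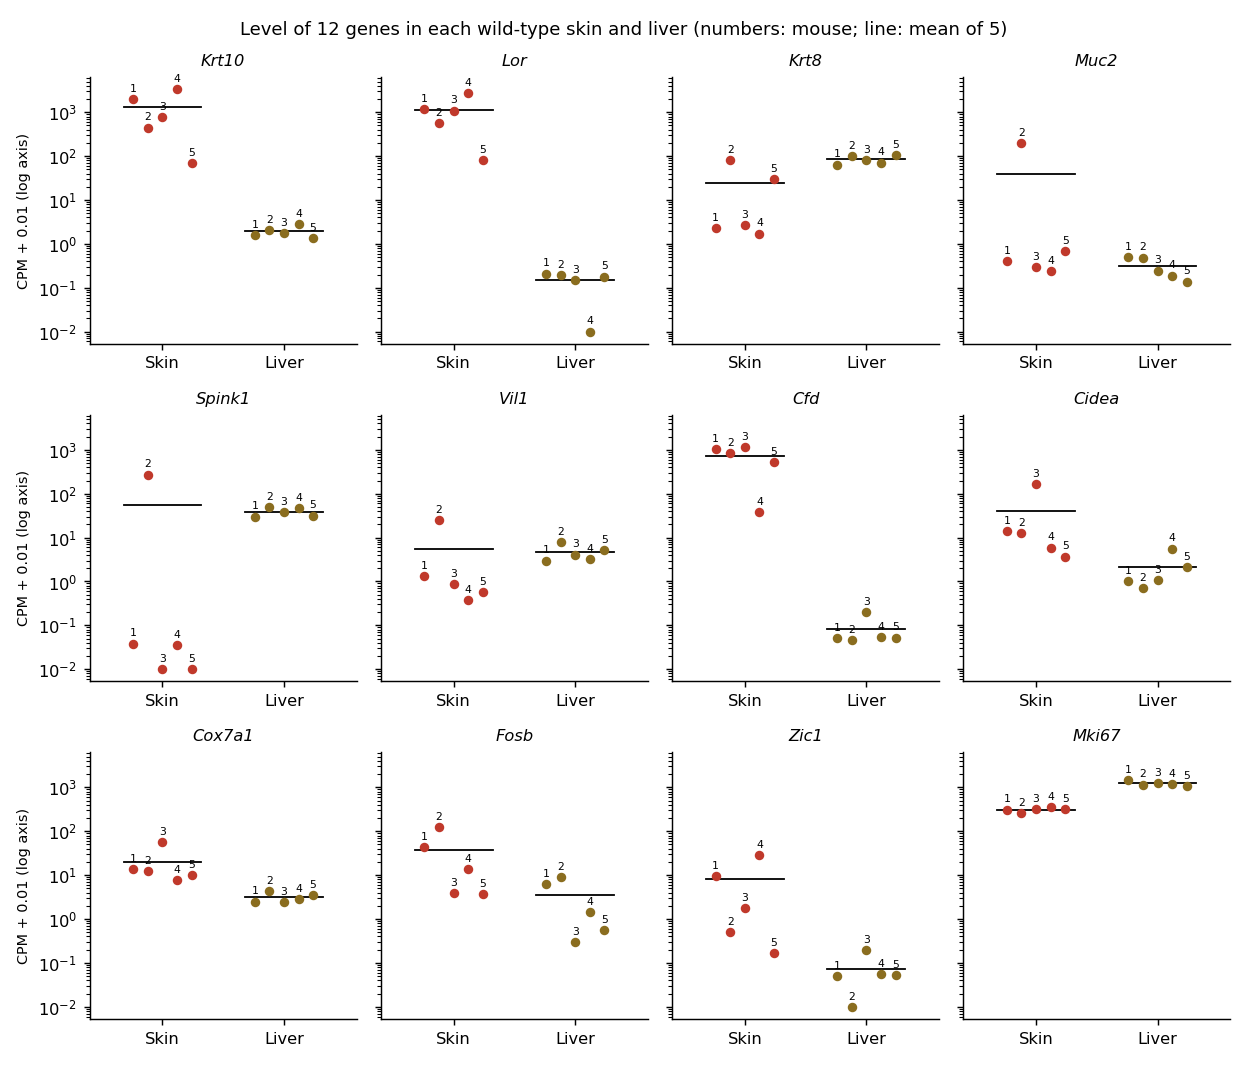
CPM + 0.01 on a log axis is shown for 12 genes in the 5 skins and the 5 livers, with numbers naming the mouse. Muc2 is high in skin 2 alone, Cidea and Cox7a1 are highest in skin 3, Cfd is lowest in skin 4, Krt10 and Lor are lowest in skin 5, and Fosb is highest in mice 1 and 2 in both tissues.

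The 2 knock-in mice, which were not in the fit that made the calls, gave a separate set of samples for the same comparison. Of the 1862 genes called higher in wild-type skin, 1439 (77.3%) were at least 2-fold higher in skin than in the brain and the liver of both knock-in mice. Of the 680 called lower, 468 (68.8%) were at least 2-fold lower in both. Over all 17071 tested genes, 1517 (8.89%) met the first condition and 583 (3.42%) the second. Folds within a mouse were taken after adding 0.1 CPM. These mice carry another genotype, so that differences from the wild-type values can come from genotype or animal, which cannot be told apart here.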

How the data were processed

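Gene expression was measured in total RNA of skin, brain and liver of newborn mice with libraries of the TruSeq RNA v2 kit, which does not mark strand, and paired-end sequencing. The authors trimmed adapters, aligned the reads to mm9 with TopHat2 and deposited the HTSeq count of each gene, 1 column of whole-number counts per library. The labels also name DESeq and give no tool versions. The counting annotation and options are not given in the sources used here, reads that fit several near-identical copies may be lost or split, and rows that name no gene were left out of library sizes and tests. Of the reads in the skin tables, 82.0% to 85.4% of those mapped to 1 place were counted on genes. No per-sample column was left unused, and no RNA integrity value was taken over.

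Counts of the 15 wild-type libraries were fitted with edgeR 4.0.16 in R 4.3.3 (limma 3.58.1): TMM factors, the filterByExpr filter by tissue, mouse and tissue as terms, and the quasi-likelihood test for skin against brain and skin against liver, with Benjamini-Hochberg adjustment over all 17071 genes. CPM values use the TMM library sizes, and log2 CPM in scores a prior count of 2. DESeq2 1.42.0 was an alternative. Tables and plots used Python 3.11.15, numpy 2.4.6, pandas 2.3.3, scipy 1.17.1 and matplotlib 3.10.9. At these depths the exact 95% binomial interval of a share of counts was at most 0.0190 percentage points to either side. Intervals and floors cover counting error only.

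The number in a title was taken as the mouse. Deviations from the tissue means correlated weakly between same-numbered libraries. The mean r was 0.0745 for skin and brain (0.00198 to 0.188), 0.0908 for skin and liver (0.0204 to 0.161) and 0.0723 for brain and liver (0.0383 to 0.115). For other numbers it was -0.0190, -0.0225 and -0.0191, which the centring on tissue means largely fixes, so that they are no separate comparison. Some unmatched pairs lay above matched ones, such as skin 1 and brain 5 (0.0701) above skin 2 and brain 2 (0.00198). The Y-linked gene Ddx3y was high in number 3 of all 3 tissues only. The closest libraries of a tissue differed by a chi-square of 22.9 per degree of freedom, so that none was a copy of another. Gene lists and members were chosen with earlier results of these data known, and 2 lists were added after values were seen. Named genes were the 20 higher and 15 lower calls with the widest gap (the log2 ratio of lowest and highest library after adding 1 CPM), up to 4 called members per list by the same gap or the 2 most abundant where none was called, the 10 genes most variable among skins, and the tissue markers. Other genes named as examples were chosen after their values were seen. Promoters are from RefSeq on GRCm38.p6, gene positions from an NCBIM37 annotation matched by symbol (20824 of 24391 rows). Some genes that the naming rule selects are not reported here. The script was tested on simulated data. Leaving out libraries, other scalings, filters, models and fold minimums were run as alternatives.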

Additional observations from a re-analysis of the deposited data

Results flagged for a closer look

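Among the 5 skins, 28 of 238 values (genes or list scores) had 1 skin whose gap to the nearest other skin exceeded 0.71 of the range, the 95% critical value of Dixon's test for 5 samples. For separate, normally distributed values chance gives about 1 such group in 20. The values here are CPM, some near the floor, and scores, of genes that can vary together, so that this rate need not hold. It does not apply to the genes chosen as most variable among skins or to examples chosen after their values were seen. Nor does it apply to the intestinal and brown fat lists. All of these are among the 238. The skin that stood apart was skin 2 in 14, skin 5 in 7, skin 4 in 4, skin 3 in 3 and skin 1 in none.

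Skin 2 was high in genes of intestinal epithelium. Spink1 was at 273 CPM there, Muc2 at 195.7, Tff3 at 107, Fcgbp at 89.6 and Vil1 at 25.03. Hnf4a was at 19.5 CPM, Cdh17 at 19.04, Krt20 at 4.09 and Hnf4g at 1.30, and the intestinal list score was 4.30. Fabp2 was flagged near the floor, at 0.138 CPM in skin 2 and with no read in the other skins, and was not high. Skin 2 was the lowest skin for the muscle genes Mylpf (858 CPM) and Tnnc2 (353 CPM), and also stood apart in Lars2 (274 CPM).

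Skin 5 stood apart as the lowest in Hrnr of the cornified layer (10.5 CPM), as the highest in Dpt (861 CPM) and Aspn (482 CPM) of the dermis and in the fibroblast score (9.77), and in Plcxd2 (0.925 CPM), Afp (1.36 CPM) and Neurod6 (0.0617 CPM). Neurod6 was near the floor there and had no read in the other skins. Skin 4 was the lowest in Cfd (37.8 CPM) and Fgf7 (8.80 CPM) and stood apart in Mmp9 (1.09 CPM) and Sf3b2 (314 CPM). Skin 3 was the highest in Cox7a1 of brown fat (55.5 CPM) and in Ddx3y (58.5 CPM), and had no read of Xist (0 CPM). What lies behind these values was not tested.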

How the results depend on the processing

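The number of genes called higher in skin stayed between 1758 and 2285 and that of lower genes between 494 and 758 with other scalings, filters and models at the same fold minimum, except that a threshold test against 2-fold gave 1499 and 465. A 4-fold minimum left 1200 higher and 340 lower genes, with 5761 different from brain and 4944 from liver, and no fold minimum gave 1546 lower genes and 11537 different from liver. Of all calls, 73.2% were higher, and 63.3% without a fold minimum. Leaving out each mouse gave 1799 to 1859 higher and 617 to 700 lower genes. Without the mouse as a replicate block, 1875 were higher and 694 lower, and none of the 142 named calls was lost.

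Scaling by total counts alone raised the median of all genes against liver by 0.71, gave 82.2% higher calls, and turned the log2 differences against liver of Top2a to 0.053, Atp5a1 to 0.59, Mrpl12 to 0.46, Mrps7 to 0.58, Psmb4 to 0.59, Sf3b1 to 0.50 and Pex19 to 0.47. Without the replicate block, Spink1 against liver turned to 0.47. Against brain, leaving out libraries moved Tff3 from -4.95 to 6.90 and Fcgbp from -1.71 to 1.37, negative wherever skin 2 was left out: Tff3 was at -4.95 without mouse 2, -4.74 without skin 2 alone and -4.70 without skins 2 and 5, and Fcgbp at -1.69 and -1.71 in the first 2 of these. The calls of Apoa1, Cidea, Dio2 and Lef1 were lost when 1 mouse or another was left out. Genes whose counts stayed under the filter, such as 10 of the cornification list, could not be tested at this depth.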
